A study of Mus musculus with 24 samples.

Results

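The 31 genes described here encode enzymes and regulators of sterol and fatty acid synthesis, and they were taken by gene name from the 18723 genes of an RNA-seq table of mouse tumours; all 31 were found. They were set in 4 roles, with 7 genes of the mevalonate steps to farnesyl diphosphate, 11 of the steps from squalene to cholesterol, 5 of sterol sensing and transport, and 8 of fatty acid synthesis, elongation and desaturation. The first 3 roles are called the sterol branch, with 23 genes. The tumours were grown from the Lewis Lung Cancer line, a mouse line labelled lung adenocarcinoma, in wild-type mice whose age, sex and strain the labels do not give. Each of the 3 groups held 8 tumours. The triple group was given anti-PD-1, an antibody against a checkpoint receptor of T cells (100 ug into the peritoneum on days 7, 10 and 14), poly I:C, an RNA duplex that mimics a viral genome (50 ug into the tumour on days 11 and 15), and the C5aR1 antagonist PMX53 (1 mg/kg subcutaneously, daily, beginning on day 6), which is taken here as the anti-C5aR1 agent of the group label. The dual group was given the same poly I:C and anti-PD-1 without PMX53, and the vehicle group was given vehicle. The comparisons asked what the triple treatment changed, what C5aR1 blockade added to the dual treatment, and what the dual treatment changed.

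Cells make cholesterol from acetyl-CoA through mevalonate, farnesyl diphosphate, squalene and lanosterol, and they make fatty acids from citrate-derived acetyl-CoA through malonyl-CoA. Genes of both routes are bound by the SREBP transcription factors, encoded by Srebf1 and Srebf2. When membrane sterol is low, the escort protein SCAP carries the SREBP precursors to the Golgi, where 2 proteases release their active part. When sterol is high, INSIG proteins hold SCAP in the endoplasmic reticulum and the target genes are transcribed less. Tumour cells, macrophages, fat cells and sebaceous glands all run these routes, and a bulk tumour mixes their RNA.

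Each library held 15671388 to 19254090 reads in triple tumours, 14535983 to 19046105 reads in dual tumours and 14438318 to 17225195 reads in vehicle tumours. The member with the fewest reads in any tumour was Idi1, with 23, and the member with the most was Scd2, with 17385. In the titles, the library numbers of each group were consecutive, so effects of group and of any library batch cannot be told apart. Of 10 lung adenocarcinoma and epithelial markers, 7 were analysed and together took 0.00403% to 0.00654% of reads in triple, 0.00320% to 0.00557% in dual and 0.00422% to 0.00746% in vehicle tumours, so the labelled cell type had few marker reads in any group. Of the 31 members, 8 overlap another gene of the table, namely Hmgcs1, Fdps, Fdft1, Cyp51, Tm7sf2, Srebf1, Srebf2 and Scap. The kit was stranded, but the sources used here do not give the strand setting of the counting, so some reads of these 8 may belong to the overlapping gene. Scd1 and Scd2 are close copies and may share reads.

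In triple against vehicle tumours, most genes of the sterol branch fell, while fatty acid synthase and its supplying enzymes did not pass the test. Of the 31 members, 24 fell and 1, Ebp, rose, 25 in all, at an adjusted p under 0.05, by limma on log2 CPM (counts scaled to library size) with Benjamini-Hochberg adjustment over all genes. Over all genes tested in this comparison, 22.8% were called lower and 23% higher, 45.7% in all. The median log2 fold change of the members was -0.70, with 27 of 31 below 0, and that of all genes was -0.02. The mevalonate steps had 6 of 7 members lower (median -0.72), the squalene-to-cholesterol steps 10 of 11 lower and 1 higher (median -0.79), and sterol sensing and transport 4 of 5 lower (median -0.50). Fatty acid synthesis, elongation and desaturation had 4 of 8 lower (median -0.32). In a bulk tumour, fewer cells of a type and less RNA per cell cannot be told apart.

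**Figure D1:**
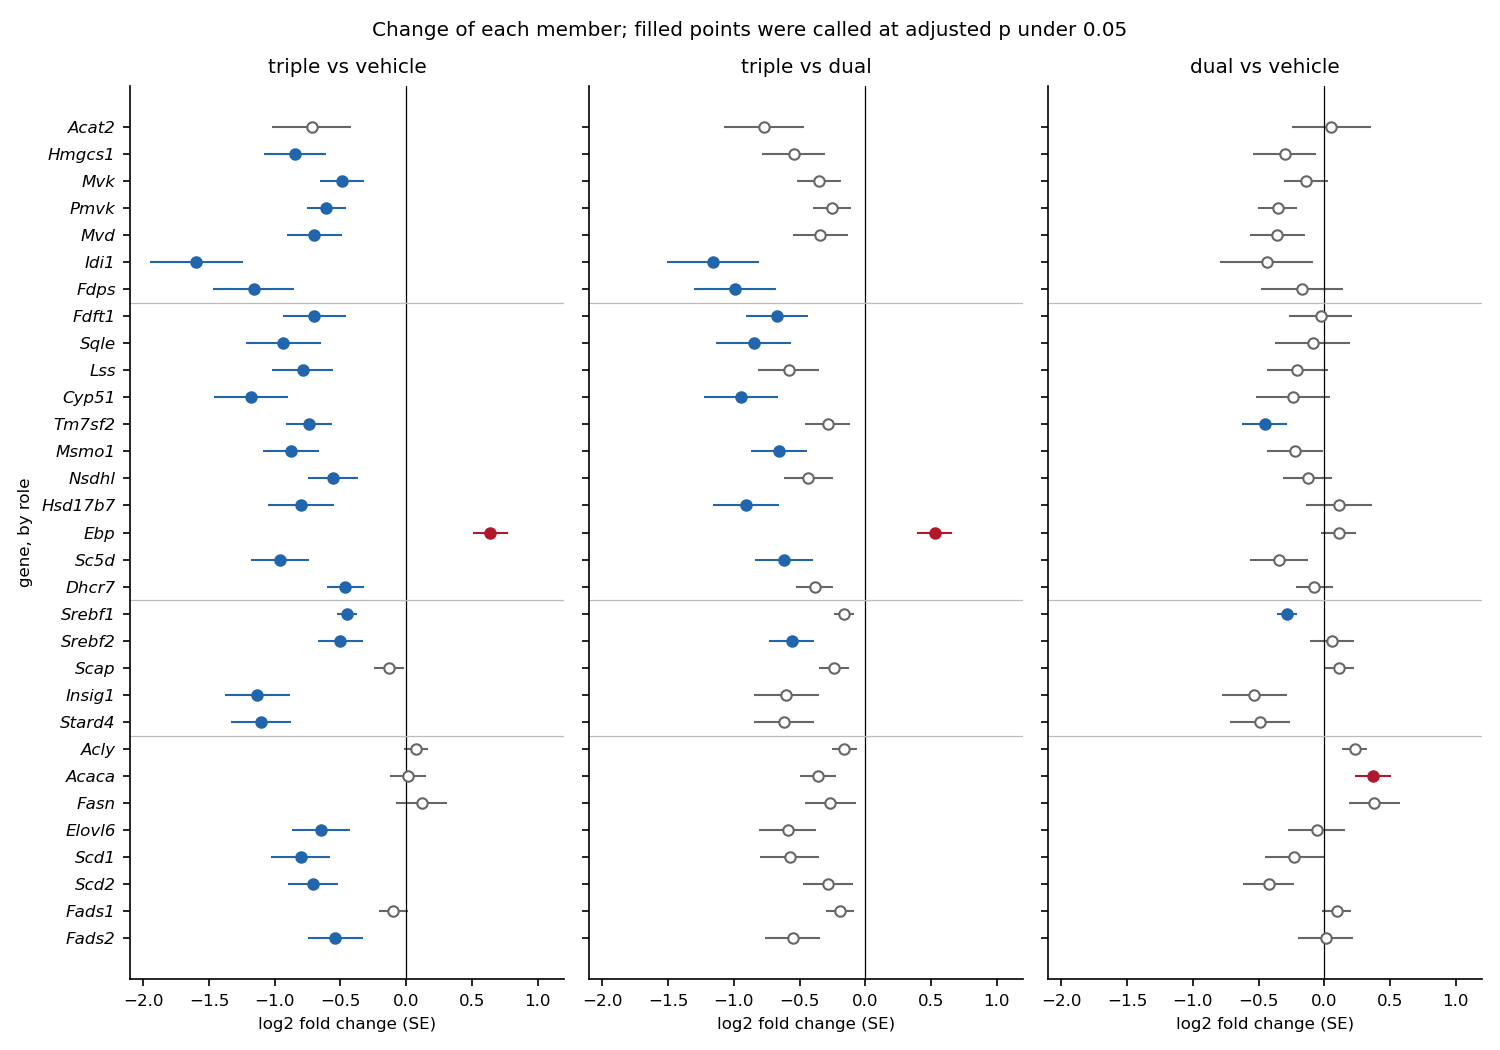
Log2 fold change (x axis) of the 31 members (y axis, ordered by role) in triple against vehicle, triple against dual and dual against vehicle tumours, from limma with 8 tumours a group. Bars are standard errors and filled points were called at adjusted p under 0.05; in triple against vehicle nearly all sterol genes lie left of 0, down to -1.60 for Idi1, and Ebp lies right of 0 at 0.64.

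Among the mevalonate genes, Idi1 (chromosome 13, 8935537 to 8942487, GRCm39), the isomerase that makes dimethylallyl diphosphate, had the largest fold change of the 31 members. Its lowest, median and highest levels were 1.39, 6.17 and 11.9 CPM in triple, 7.90, 11.0 and 19.8 CPM in dual, and 13.6, 15.7 and 18.3 CPM in vehicle tumours. All 8 triple tumours lay below every vehicle tumour, and its log2 fold change was -1.60 ± 0.35 (SE, adjusted p = 0.000787 by limma). Fdps (chromosome 3, 89000895 to 89009266), which makes farnesyl diphosphate, had 3.94, 11.8 and 27.8 CPM in triple, 15.8, 22.5 and 36.1 CPM in dual, and 20.4, 26.02 and 33.5 CPM in vehicle tumours. Its triple and vehicle tumours overlapped, with 5 of 8 triple tumours below the lowest vehicle tumour, and it fell by 1.16 ± 0.31 (adjusted p = 0.00392 by limma). Hmgcs1 (chromosome 13, 120151915 to 120169796), the HMG-CoA synthase of the cytosol, had 42.8, 95.4 and 199 CPM in triple, 106, 137 and 187 CPM in dual, and 137, 176 and 218 CPM in vehicle tumours. Its groups overlapped too, and it fell by 0.85 ± 0.24 (adjusted p = 0.00592 by limma). The kinases Mvk and Pmvk and the decarboxylase Mvd also fell, by 0.49, 0.61 and 0.70. Acat2, the cytosolic acetoacetyl-CoA thiolase, had a log2 fold change of -0.72 and did not pass the test (adjusted p = 0.0541 by limma).

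In the squalene-to-cholesterol steps, Cyp51 (chromosome 5, 4131145 to 4154746), the lanosterol 14-alpha-demethylase, had the largest fold change. Its lowest, median and highest levels were 21.1, 49.6 and 116 CPM in triple, 73.6, 89.95 and 149 CPM in dual, and 101, 107 and 139 CPM in vehicle tumours. In 7 of 8 triple tumours Cyp51 lay below the lowest vehicle tumour, and it fell by 1.18 ± 0.28 (adjusted p = 0.00151 by limma). Sqle (chromosome 15, 59186926 to 59203041), squalene epoxidase, had 23.6, 69.9 and 161 CPM in triple, 96.2, 116 and 158 CPM in dual, and 107, 127 and 159 CPM in vehicle tumours. Its triple tumours spanned the whole vehicle range and reached above it, with 5 of 8 below the lowest vehicle tumour, and it fell by 0.94 ± 0.29 (adjusted p = 0.0101 by limma). Sc5d, Msmo1, Hsd17b7, Lss, Tm7sf2, Fdft1, Nsdhl and Dhcr7, which carry out other steps of the route, fell by 0.46 (Dhcr7) to 0.96 (Sc5d).

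Ebp (chromosome X, 8051568 to 8059751), the sterol isomerase that moves the double bond of the B ring, was the member that rose. It had 20.4, 23.4 and 43.2 CPM in triple, 12.3, 18.1 and 21.96 CPM in dual, and 13.2, 16.5 and 18.8 CPM in vehicle tumours. All 8 triple tumours lay above every vehicle tumour, and the log2 fold change was 0.64 ± 0.13 (adjusted p = 0.000445 by limma). With Idi1 and Srebf1, Ebp was among the 3 of 31 members whose triple and vehicle tumours did not overlap, against 9.85% of all genes tested. Idi1 and Srebf1 were lower in this way, as were 5.85% of all genes. Its highest triple tumour was T_352_S48, the tumour with the lowest Idi1.

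Among the sensing and transport genes, Insig1 (chromosome 5, 28276361 to 28283660), which retains SCAP, had 16.2, 40.8 and 81.5 CPM in triple, 43.8, 62.0 and 96.8 CPM in dual, and 79.9, 94.3 and 111 CPM in vehicle tumours. In 7 of 8 triple tumours it lay below every vehicle tumour, and it fell by 1.13 ± 0.25 (adjusted p = 0.000741 by limma). Stard4 (chromosome 18, 33332408 to 33346915), a cytosolic sterol carrier, had 17.2, 35.3 and 74.6 CPM in triple, 41.4, 50.6 and 76.1 CPM in dual, and 65.1, 72.7 and 92.8 CPM in vehicle tumours. Again 7 of 8 triple tumours lay below the vehicle range, and it fell by 1.102 ± 0.23 (adjusted p = 0.000452 by limma). Srebf1 (chromosome 11, 60089915 to 60113407), which encodes the SREBP-1 isoforms, had 91.9, 109 and 135 CPM in triple, 113, 126 and 141 CPM in dual, and 141, 152 and 182 CPM in vehicle tumours. Its fall was smaller, 0.45 ± 0.08, but no triple tumour reached the vehicle range, and its adjusted p of 6.24e-05 by limma was the smallest of the 31 members. Srebf2, which encodes SREBP-2, fell by 0.50, and Scap had a log2 fold change of -0.13 and did not pass the test (adjusted p = 0.373 by limma).

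In the fatty acid branch, Scd1, Scd2, Elovl6 and Fads2 fell, and Acly, Acaca, Fasn and Fads1 did not pass the test. Fasn (chromosome 11, 120696672 to 120715373), fatty acid synthase, had 117, 349.5 and 419 CPM in triple, 299, 348 and 430 CPM in dual, and 223, 258 and 349.7 CPM in vehicle tumours. Its triple tumours lay on both sides of the vehicle range, with 1 below and 4 above it, and its log2 fold change of 0.12 ± 0.19 did not pass the test (adjusted p = 0.644 by limma). Acly, which makes cytosolic acetyl-CoA, and Acaca, acetyl-CoA carboxylase, had log2 fold changes of 0.07 and 0.01, and Fads1, the delta-5 desaturase, had -0.10; none of the 3 passed the test. Scd1 (chromosome 19, 44382894 to 44396318), a stearoyl-CoA desaturase, had 68.1, 174 and 294 CPM in triple, 187, 219.6 and 306 CPM in dual, and 229, 269 and 320.4 CPM in vehicle tumours. Its groups overlapped, with 6 of 8 triple tumours below the lowest vehicle tumour, and it fell by 0.80 ± 0.23 (adjusted p = 0.00569 by limma). Scd2, another stearoyl-CoA desaturase, fell by 0.71, the elongase Elovl6 by 0.65, and Fads2, the delta-6 desaturase, by 0.54 (adjusted p = 0.0379 by limma). The call of Fads2 was lost when any 1 of 8 tumours was left out (T_352_S48, T_353_S45, T_354_S47, T_355_S43, C_356_S27, C_361_S32, C_364_S28 or C_369_S30), and that of Mvk was lost without T_355_S43; the other 23 called members were called whichever tumour was left out.

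**Figure D2:**
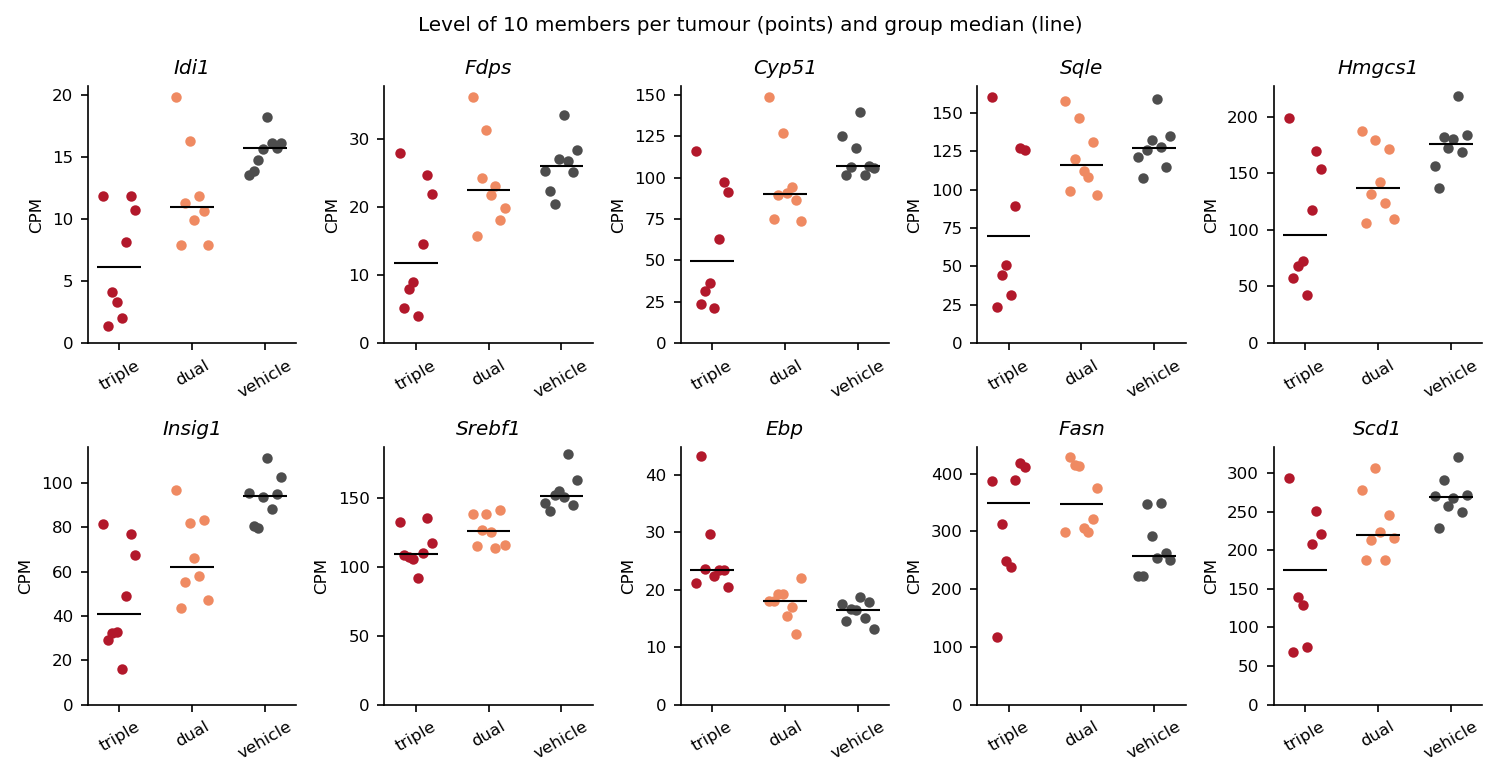
Level in CPM (y axis, linear, from 0) of 10 members in each triple, dual and vehicle tumour (points), with the group median (line). Idi1 and Srebf1 in triple tumours lie below all vehicle tumours and Ebp lies above them, while the triple tumours of Sqle and Hmgcs1 run from far below the vehicle tumours into their range.

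The promoters of 5 of these genes are printed as the 250 bases before the gene start, 5′ to 3′ on the gene's strand, from RefSeq on GRCm38.p6, a build that differs from that of the gene positions above. Idi1, Cyp51, Insig1 and Hmgcs1 are shown for their fall, and Ebp because it rose beside them. Capitals mark the NF-Y box (CCAAT, or ATTGG on the other strand) and the core of the sterol regulatory element (TCACNCCAC). The positions are chr13:8885356-8885605 (plus strand) for Idi1, chr13:119690101-119690350 (plus strand) for Hmgcs1, chr5:4104698-4104947 (minus strand) for Cyp51, chrX:8193513-8193762 (minus strand) for Ebp and chr5:28071162-28071411 (plus strand) for Insig1.
Idi1: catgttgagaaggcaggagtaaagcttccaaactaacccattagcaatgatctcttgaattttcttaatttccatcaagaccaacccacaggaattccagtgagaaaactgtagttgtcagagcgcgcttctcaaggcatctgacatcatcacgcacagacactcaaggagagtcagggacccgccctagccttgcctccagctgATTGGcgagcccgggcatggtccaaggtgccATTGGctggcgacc
Hmgcs1: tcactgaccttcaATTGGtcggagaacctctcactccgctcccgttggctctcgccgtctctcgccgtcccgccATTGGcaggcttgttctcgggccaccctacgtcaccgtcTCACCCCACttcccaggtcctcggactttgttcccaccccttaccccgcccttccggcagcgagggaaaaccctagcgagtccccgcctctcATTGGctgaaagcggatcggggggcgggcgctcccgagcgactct
Cyp51: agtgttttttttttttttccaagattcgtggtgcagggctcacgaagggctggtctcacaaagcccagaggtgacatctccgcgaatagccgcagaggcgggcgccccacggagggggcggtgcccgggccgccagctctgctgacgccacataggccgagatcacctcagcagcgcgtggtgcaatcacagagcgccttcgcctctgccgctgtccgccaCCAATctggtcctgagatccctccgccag
Ebp: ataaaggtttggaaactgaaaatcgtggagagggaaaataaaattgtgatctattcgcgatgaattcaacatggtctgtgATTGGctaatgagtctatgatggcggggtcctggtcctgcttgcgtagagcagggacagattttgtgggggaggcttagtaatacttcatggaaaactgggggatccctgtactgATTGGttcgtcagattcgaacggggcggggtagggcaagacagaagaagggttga
Insig1: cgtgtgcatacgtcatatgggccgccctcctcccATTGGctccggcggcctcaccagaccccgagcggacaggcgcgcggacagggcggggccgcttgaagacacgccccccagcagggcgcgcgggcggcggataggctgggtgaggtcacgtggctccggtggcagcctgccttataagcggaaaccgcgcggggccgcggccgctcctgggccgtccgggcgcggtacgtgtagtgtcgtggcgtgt

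Each of these 5 windows holds at least 1 NF-Y box, Ebp included, and Hmgcs1 also holds the sterol element core, whose leftmost base lies 137 bases before the start. Of the 31 members, 24 had a promoter in the table; Fads1, Fdft1, Fdps, Scd1, Scd2, Sqle and Stard4 had none. Over the window from 250 bases before to 50 bases after the start, on both strands, CCAAT was in 19 of 24 member promoters and in 17 of 19 of the sterol branch, against 42.4% of the 12419 tested genes with a promoter. The Sp1 box GGGCGG was in 20 of 24 member promoters, against 63.5% of those genes. The core TCACNCCAC of the sterol regulatory element was in 1 of 24, against 1.37%, and the full sterol regulatory element, which contains this core, was in 0 of 24, against 0.242%. These are matches of letters, and binding was not measured.

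The fall in triple tumours was uneven between tumours. For each tumour, the log2 difference from the vehicle mean was taken for the 23 sterol genes and their median given. It was -1.59 in T_352_S48, -1.44 in T_355_S43, -1.27 in T_353_S45, -1.002 in T_354_S47 and -0.54 in T_360_S46. The other 3 triple tumours were near the vehicle mean, at -0.17 in T_363_S41, -0.06 in T_362_S42 and 0.11 in T_331_S44. Dual tumours ran from -0.52 to 0.21 and vehicle tumours from -0.19 to 0.26. Idi1 gave a similar order, with 1.39 CPM in T_352_S48, 2.02 in T_355_S43, 3.29 in T_354_S47 and 4.14 in T_353_S45, then 8.19 in T_360_S46, 10.8 in T_363_S41, 11.8 in T_362_S42 and 11.9 in T_331_S44.

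The number of members below the lowest vehicle tumour was 29 of 31 in T_352_S48, 26 in T_353_S45, 29 in T_354_S47, 27 in T_355_S43 and 24 in T_360_S46. It was 10 in T_363_S41, 9 in T_362_S42 and 2 in T_331_S44. Over all genes the share below the lowest vehicle tumour was at most 37.7% in a triple tumour, in T_352_S48. In 28 of the 31 members the 4 lowest triple tumours were T_352_S48, T_353_S45, T_354_S47 and T_355_S43, and this held for 8.97% of all genes. The fatty acid genes had median differences of -1.22, -0.60, -0.64 and -0.96 in T_352_S48, T_353_S45, T_354_S47 and T_355_S43, then -0.11 in T_360_S46, 0.05 in T_363_S41, 0.19 in T_362_S42 and 0.35 in T_331_S44. The SD of the log2 level over tumours had a median over members of 0.70 in triple, 0.26 in dual and 0.17 in vehicle tumours, against 0.45, 0.29 and 0.25 over all genes. All 31 members had a larger SD in triple than in vehicle tumours, as did 81.4% of all genes.

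**Figure D3:**
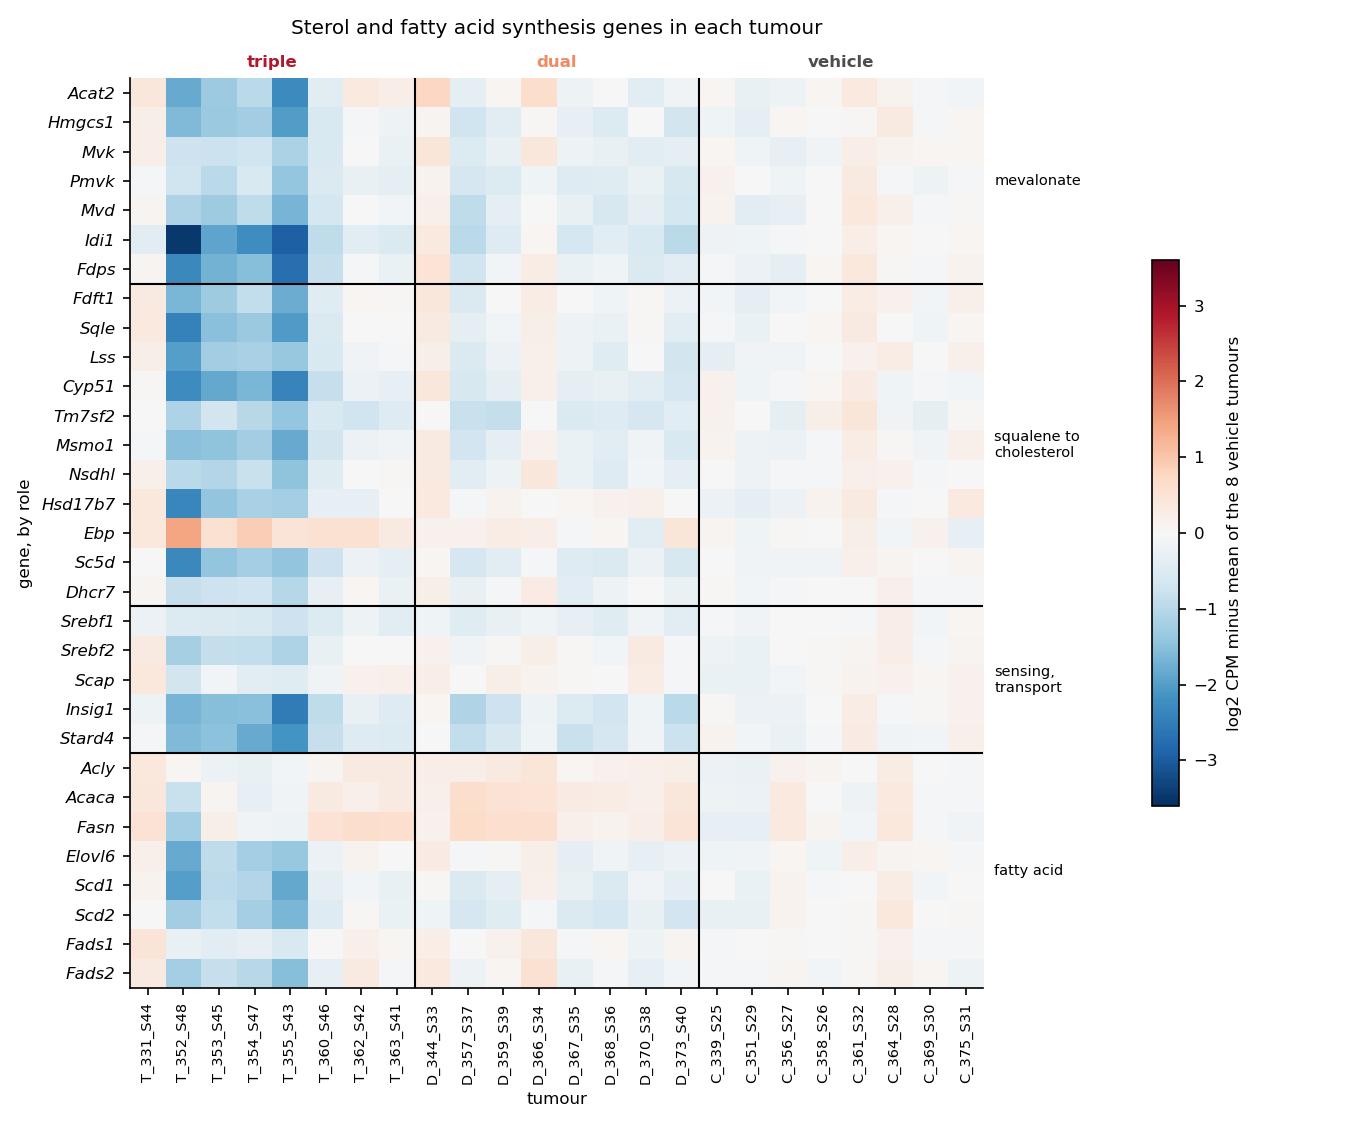
Log2 difference from the vehicle mean (colour, from -3.6 to 3.6) of the 31 members (rows, by role) in each triple, dual and vehicle tumour (columns). T_352_S48, T_353_S45, T_354_S47 and T_355_S43 are low in most rows, the other triple tumours are closer to the dual tumours, and Ebp is above the vehicle mean in all 8 triple tumours.

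Marker reads of some other cell types were highest in the 4 tumours with the lowest sterol genes, but did not follow the sterol values in every tumour. The 20 skeletal muscle markers together took 0.159%, 0.272%, 0.172% and 0.195% of reads in T_352_S48, T_353_S45, T_354_S47 and T_355_S43, and 0.115% in T_362_S42, whose sterol genes were near the vehicle mean. The range was 0.0262% to 0.272% in triple, 0.0257% to 0.0998% in dual and 0.0157% to 0.0593% in vehicle tumours. Of 11 adipocyte markers 9 were analysed, with 0.0257%, 0.0151%, 0.0142% and 0.0107% in the same 4 tumours, inside ranges of 0.00188% to 0.0257% in triple, 0.00369% to 0.00728% in dual and 0.00234% to 0.00712% in vehicle tumours. The 10 macrophage markers took 0.574%, 0.334%, 0.311% and 0.250%, inside ranges of 0.112% to 0.574% in triple, 0.115% to 0.161% in dual and 0.141% to 0.209% in vehicle tumours. The 12 T cell markers took 0.0188%, 0.0171%, 0.0156% and 0.0151%, inside ranges of 0.00339% to 0.0188% in triple, 0.00337% to 0.00798% in dual and 0.00308% to 0.00715% in vehicle tumours. These 4 tumours thus had the highest muscle, adipocyte, macrophage and T cell shares of the 24. T_360_S46, with a sterol median of -0.54, had muscle, adipocyte and macrophage shares of 0.0495%, 0.00648% and 0.207%, inside the vehicle ranges. Its T cell share of 0.00998% was above the dual and vehicle ranges.

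The other marker lists were read in the same way. The 15 proliferation markers took 0.0974% in T_352_S48, 0.149% in T_355_S43, 0.183% in T_354_S47 and 0.232% in T_353_S45, inside ranges of 0.0974% to 0.268% in triple, 0.141% to 0.266% in dual and 0.126% to 0.206% in vehicle tumours. Of 14 neutrophil markers 13 were analysed, with 0.138%, 0.0363%, 0.0862% and 0.202% in T_352_S48, T_353_S45, T_354_S47 and T_355_S43, inside ranges of 0.0305% to 0.202% in triple, 0.0539% to 0.116% in dual and 0.0103% to 0.0152% in vehicle tumours. Of 10 sebaceous gland markers 4 were analysed, with 0.0347%, 0.0346%, 0.0310% and 0.0395% in T_352_S48, T_353_S45, T_354_S47 and T_355_S43 and 0.0318% in T_360_S46, inside ranges of 0.0266% to 0.0395% in triple, 0.0206% to 0.0313% in dual and 0.0223% to 0.0284% in vehicle tumours. Soat1 and Mgst1 held most of the sebaceous marker reads, with medians of 4403.5 and 940 reads in triple tumours. Awat2 and Far2 had medians of 8.5 and 25.5. Mean log2 CPM of Soat1 and Mgst1 was 8.03 and 5.78 in triple, against 7.81 and 3.81 in vehicle tumours. Awat2 and Far2 went the other way, with -0.99 and 0.62 in triple against -0.78 and 0.90 in vehicle tumours. Mitochondrially encoded genes took 1.00% to 2.31% in triple, 1.54% to 2.07% in dual and 2.02% to 4.81% in vehicle tumours. The part of these reads in the fall of the sterol genes was not tested directly.

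With the muscle score as a covariate in the same limma fit, 1 member was called lower (Srebf1) and 1 higher (Ebp) in triple against vehicle tumours, and the median of the members was -0.28. With the adipocyte score as covariate, 11 were called lower and 1 higher. Without the 5 triple tumours richest in muscle reads, each above all dual and vehicle tumours, 3 triple tumours remained, with 3 members lower (Idi1, Srebf1 and Insig1), 4 higher (Ebp, Acly, Acaca and Fasn) and a median of -0.14. The exact Wilcoxon test, adjusted over all genes, called 11 lower and 1 higher. The shares of all genes called by the Wilcoxon test and with the adipocyte covariate are not reported here, so these counts have no background. With the muscle covariate and without the muscle-rich tumours, fewer of all genes were called as well, as counted in the closing section. In both settings the number called fell more steeply among the members than among all genes. The cause was not tested.

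**Figure D4:**
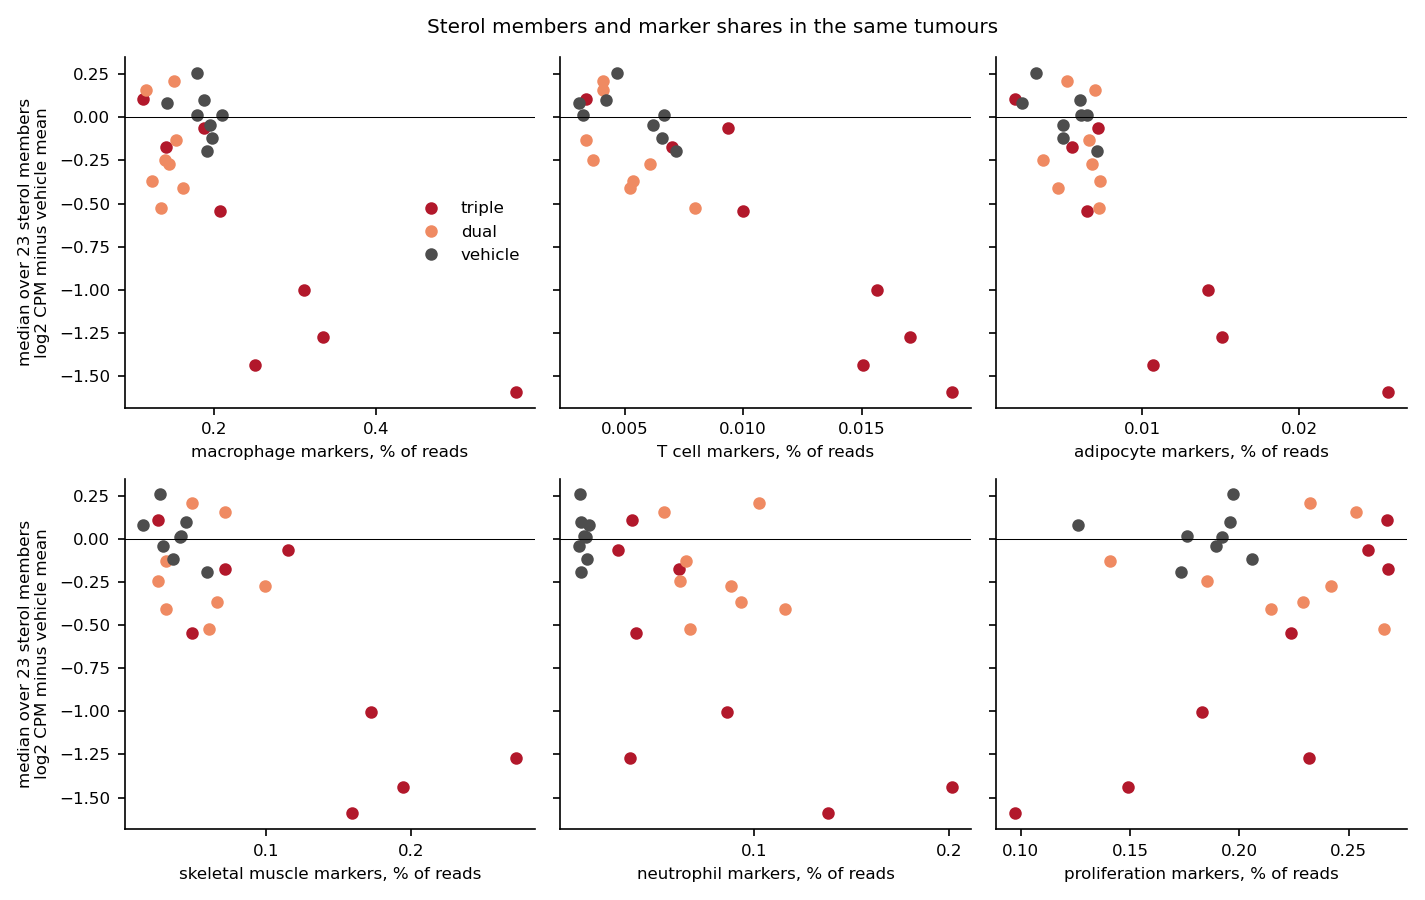
Median log2 difference of the 23 sterol genes from the vehicle mean (y axis) against the percent of reads in each marker list (x axis, linear) in triple, dual and vehicle tumours (points). The 4 lowest tumours, from -1.59 to -1.002, are triple tumours and have the highest muscle, adipocyte, macrophage and T cell shares.

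Scd1 is also strongly expressed by fat cells, so its level was set against the adipocyte marker share within each group of 8 tumours. In triple tumours Scd1 was lower where the adipocyte share was higher, with Pearson's r = -0.83 (exact permutation p = 0.0129, adjusted 0.0388 over the 3 groups) and Spearman's rho = -0.83 (exact permutation p = 0.0154, adjusted 0.0461). Without T_331_S44 and T_352_S48, the tumours farthest from the median adipocyte share, r was -0.62 (exact permutation p = 0.228, n = 6), and the relation did not pass the test without them. In dual tumours r was -0.15 (exact permutation p = 0.709, adjusted 0.709) and rho -0.43 (exact permutation p = 0.299, adjusted 0.389), with r = -0.56 without the 2 farthest. In vehicle tumours r was -0.20 (exact permutation p = 0.624, adjusted 0.709) and rho -0.36 (exact permutation p = 0.389, adjusted 0.389), with r = -0.39 without the 2 farthest. The coefficients were below 0 in all 3 groups. In 28 members, Scd1 among them, the same 4 triple tumours had the lowest levels. Those 4 tumours also had the highest muscle, adipocyte, macrophage and T cell shares. Whether the relation is particular to Scd1 or to adipocyte markers was not tested.

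In triple against dual tumours, which differ in C5aR1 blockade, 9 members fell and 1 rose by the same limma fit, and all 10 belong to the sterol branch. Over all genes 9.97% were called lower and 11.4% higher, 21.4% in all. The triple and dual tumours of every member overlapped, and 0.475% of all genes had groups that did not. The members that fell were Idi1, Fdps, Fdft1, Sqle, Cyp51, Msmo1, Hsd17b7, Sc5d and Srebf2, and Ebp rose. The median of the members was -0.55, with 30 of 31 below 0, against -0.004 for all genes. An unadjusted p under 0.05 was found for 24 of 31 members and, over all genes, for at least the 21.4% called after adjustment. Under median centring, 1724 of all genes were called higher and 2976 lower in place of 2140 and 1867, the median of all genes was -0.10 and that of the members -0.65, with 16 members lower and 1 higher. The squalene-to-cholesterol steps had 6 of 11 lower and 1 higher (median -0.62), the mevalonate steps 2 of 7 lower (median -0.54), and sensing and transport 1 of 5 lower (median -0.56). Of the 8 fatty acid genes, limma called 0, with 4 at an unadjusted p under 0.05 and a median of -0.32, and the exact Wilcoxon test called 0 as well, with 0 at an unadjusted p under 0.05.

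Idi1, with the levels given above, had a log2 fold change of -1.16 ± 0.35 against dual tumours (adjusted p = 0.0243 by limma), and 4 of 8 triple tumours lay below the lowest dual tumour. Fdps fell by 0.99 ± 0.31 (adjusted p = 0.0273), Cyp51 by 0.95 ± 0.28 (adjusted p = 0.022) and Sqle by 0.85 ± 0.29 (adjusted p = 0.0375), each by limma with 5 of 8 triple tumours below the dual range. Hsd17b7 (chromosome 1, 169777104 to 169796810), a sterol 3-keto reductase, had 7.35, 23.4 and 48.3 CPM in triple, 36.3, 39.9 and 48.04 CPM in dual, and 29.9, 36.6 and 47.8 CPM in vehicle tumours. Its dual tumours were tightly grouped, 6 of 8 triple tumours lay below them, and it fell by 0.91 ± 0.25 (adjusted p = 0.0161 by limma). Ebp had a log2 fold change of 0.53 ± 0.13 (adjusted p = 0.0109 by limma), with 6 of 8 triple tumours above every dual tumour. Hmgcs1, Insig1, Srebf1, Fasn and Scd1 had log2 fold changes of -0.54, -0.60, -0.16, -0.27 and -0.58 and did not pass the test.

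The calls of triple against dual tumours rested on few tumours. Without T_352_S48, T_353_S45, T_354_S47 or T_355_S43 the number of called members was 2, 3, 6 and 3, without D_344_S33 or D_366_S34 it was 4 and 5, and without T_331_S44, T_362_S42 or T_363_S41 it was 25, 20 and 20. Over all genes, leaving out each tumour in turn gave 2424 to 6673 genes called, against 4007 with all tumours. Hsd17b7 and Ebp were called whichever tumour was left out. With the 2 groups alone in the fit, 0 members were called lower and 1 higher, with 18 at an unadjusted p under 0.05, and the exact Wilcoxon test gave 0 lower and 1 higher, with 3 at an unadjusted p under 0.05. With the muscle score as covariate 0 members were called (3 at an unadjusted p under 0.05, members' median -0.25). Without the 5 muscle-rich triple tumours 0 were called (1 at an unadjusted p under 0.05, members' median 0.03). The last 2 settings also called few genes of the whole table, as counted in the closing section. The 2-group fit and the Wilcoxon test called fewer than the 4007 genes above. Under the 2-group fit and the Wilcoxon test, the number called fell more steeply among the members than among all genes. The cause was not tested. Shares of all genes at an unadjusted p under 0.05 under these settings are not reported here, so the unadjusted counts of members have no background.

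In dual against vehicle tumours, 2 members fell and 1 rose, over a background of 15.8% of all genes called lower and 15% higher, 30.8% in all, by limma. The median of the members was -0.14, with 21 of 31 below 0, against -0.03 for all genes. An unadjusted p under 0.05 was found for 8 of 31 members and, over all genes, for at least the 30.8% called after adjustment. Srebf1 fell by 0.29 ± 0.08 (adjusted p = 0.00618 by limma), with 7 of 8 dual tumours below the lowest vehicle tumour. Tm7sf2 (chromosome 19, 6112851 to 6118403), a sterol 14-reductase, had 5.15, 6.66 and 9.55 CPM in dual and 7.31, 9.46 and 12.8 CPM in vehicle tumours, beside 3.57, 5.82 and 9.24 CPM in triple tumours. Its groups overlapped, and it fell by 0.45 ± 0.17 (adjusted p = 0.0472 by limma). Acaca (chromosome 11, 84020498 to 84292477) had 62.9, 70.7 and 85.5 CPM in dual and 48.2, 53.3 and 70.8 CPM in vehicle tumours, beside 31.6, 61.7 and 73.3 CPM in triple tumours. All 8 dual tumours lay above the vehicle median, and its log2 fold change was 0.37 ± 0.14 (adjusted p = 0.0397 by limma).

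The other genes of the fatty acid synthesis steps did not pass the test in this comparison, with log2 fold changes of 0.38 ± 0.19 for Fasn (adjusted p = 0.136) and 0.23 ± 0.09 for Acly (adjusted p = 0.0618 by limma), although all 8 dual tumours lay above the vehicle median for both. Hmgcs1, Sqle, Insig1 and Scd1 had log2 fold changes of -0.30, -0.09, -0.53 and -0.23 and did not pass the test. With the dual and vehicle groups alone in the fit, 10 members were called lower and 3 higher (Acly, Acaca and Fasn). The count over all genes in this fit is not reported here, and the cause of the difference was not tested. Under median centring 0 members were called, and the number was 1 without C_339_S25, C_351_S29, C_358_S26, C_361_S32, C_375_S31, D_357_S37, D_359_S39 or D_373_S40 and 5 without T_331_S44 or T_355_S43. Srebf1 was called whichever tumour was left out. Since all 3 comparisons share groups of tumours, their values are given side by side and no overlap between them is drawn.

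Other genes of the same pathway were read as lists. Of 10 further genes of sterol synthesis, uptake and SREBP processing, 5 fell and 0 rose in triple against vehicle, 5 fell and 1 rose in triple against dual, and 4 fell and 2 rose in dual against vehicle tumours. Over all genes 45.7%, 21.4% and 30.8% were called either way in these comparisons. Mbtps1, the Golgi protease that makes the opening cut in SREBP precursors, had 133, 179.9 and 255 CPM in triple, 185, 226 and 283 CPM in dual, and 298, 316 and 359.9 CPM in vehicle tumours. All triple tumours and all dual tumours lay below every vehicle tumour, and Mbtps1 fell by 0.83 in triple and by 0.51 in dual against vehicle tumours. Ggps1, which makes geranylgeranyl diphosphate, fell by 0.56 and Insig2 by 0.43 in triple against vehicle tumours. Mylip, a ubiquitin ligase, had a log2 fold change of 0.82 in triple against dual and fell by 1.23 in dual against vehicle tumours, while Mbtps2, the protease of the next cut, fell by 0.45 and Ggps1 by 0.32 in triple against dual tumours. Tmem97, a sterol-related membrane protein, had a log2 fold change of 0.64 in dual against vehicle tumours and was called higher.

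Of 13 genes of cholesterol export, storage and oxysterols, 7 rose and 1 fell in triple against vehicle tumours, where 23% of all genes were called higher and 22.8% lower. In triple against dual tumours 6 rose and 0 fell, with 11.4% of all genes higher and 9.97% lower, and in dual against vehicle tumours 2 rose and 2 fell, with 15% higher and 15.8% lower. The exporter Abcg1 had 31.8, 119 and 242 CPM in triple, 26.3, 37.7 and 70.0 CPM in dual, and 14.3, 22.5 and 26.2 CPM in vehicle tumours. All 8 triple tumours exceeded every vehicle tumour, and its log2 fold change was 2.19 ± 0.28 against vehicle (adjusted p = 2.91e-06) and 1.29 ± 0.28 against dual tumours (adjusted p = 0.00661 by limma). Abca1, another exporter, had 54.5, 142 and 488 CPM in triple, 54.3, 79.2 and 109 CPM in dual, and 36.4, 48.8 and 68.2 CPM in vehicle tumours, with log2 fold changes of 1.65 ± 0.32 against vehicle (adjusted p = 0.000264) and 1.04 ± 0.32 against dual tumours (adjusted p = 0.0263 by limma). For Abca1, Abcg1 and the lysosomal cholesterol transporter Npc1, the 4 highest triple tumours were T_352_S48, T_353_S45, T_354_S47 and T_355_S43. These were the tumours with the lowest sterol genes and the highest muscle, adipocyte, macrophage and T cell shares. The same did not hold for Ebp or for the receptor gene Nr1h3, with 52.2 CPM in T_360_S46 and 32.1 CPM in T_355_S43. How many of all genes had these 4 highest tumours was not counted.

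Nr1h3, which encodes the oxysterol receptor LXR-alpha, rose by 1.74 ± 0.31 and Npc1 by 0.93 ± 0.16 in triple against vehicle tumours. Cyp27a1, a mitochondrial sterol 27-hydroxylase, fell by 1.71 in dual against vehicle tumours and rose by 1.03 in triple against dual tumours. Ch25h, cholesterol 25-hydroxylase, had a log2 fold change of 0.61 ± 0.30 in triple against vehicle tumours and did not pass the test (adjusted p = 0.0998 by limma). In dual against vehicle tumours Npc2 rose by 0.54 and Apoe, the apolipoprotein of lipid transport, fell by 0.82.

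Of 21 other genes of fatty acid synthesis, activation and glycerolipids, 20 were analysed. In triple against vehicle tumours 8 rose and 5 fell, in triple against dual 4 rose and 3 fell, and in dual against vehicle 4 rose and 2 fell, beside 45.7%, 21.4% and 30.8% of all genes called either way. Acss2, the cytosolic acetyl-CoA synthetase, had 6.30, 9.55 and 12.3 CPM in triple, 5.68, 9.88 and 12.6 CPM in dual, and 14.8, 17.7 and 21.7 CPM in vehicle tumours. Both treated groups lay wholly below the vehicle tumours, and Acss2 fell by 0.93 in triple and by 0.91 in dual against vehicle tumours, with a log2 fold change of -0.02 in triple against dual tumours that did not pass the test. Dgat2, which makes triglyceride, had 3.34, 5.81 and 27.4 CPM in triple, 5.24, 6.63 and 8.42 CPM in dual, and 1.07, 1.80 and 2.64 CPM in vehicle tumours, with log2 fold changes of 2.02 in triple and 1.89 in dual against vehicle tumours. Acsl1, an acyl-CoA synthetase, rose by 1.41 in triple against vehicle tumours and by 0.52 in triple against dual tumours. In triple against dual tumours Acacb, the mitochondrial acetyl-CoA carboxylase, rose by 0.99 and Acsl3 fell by 0.67, and Me1, malic enzyme, rose by 0.77 in dual against vehicle tumours.

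**Figure D5:**
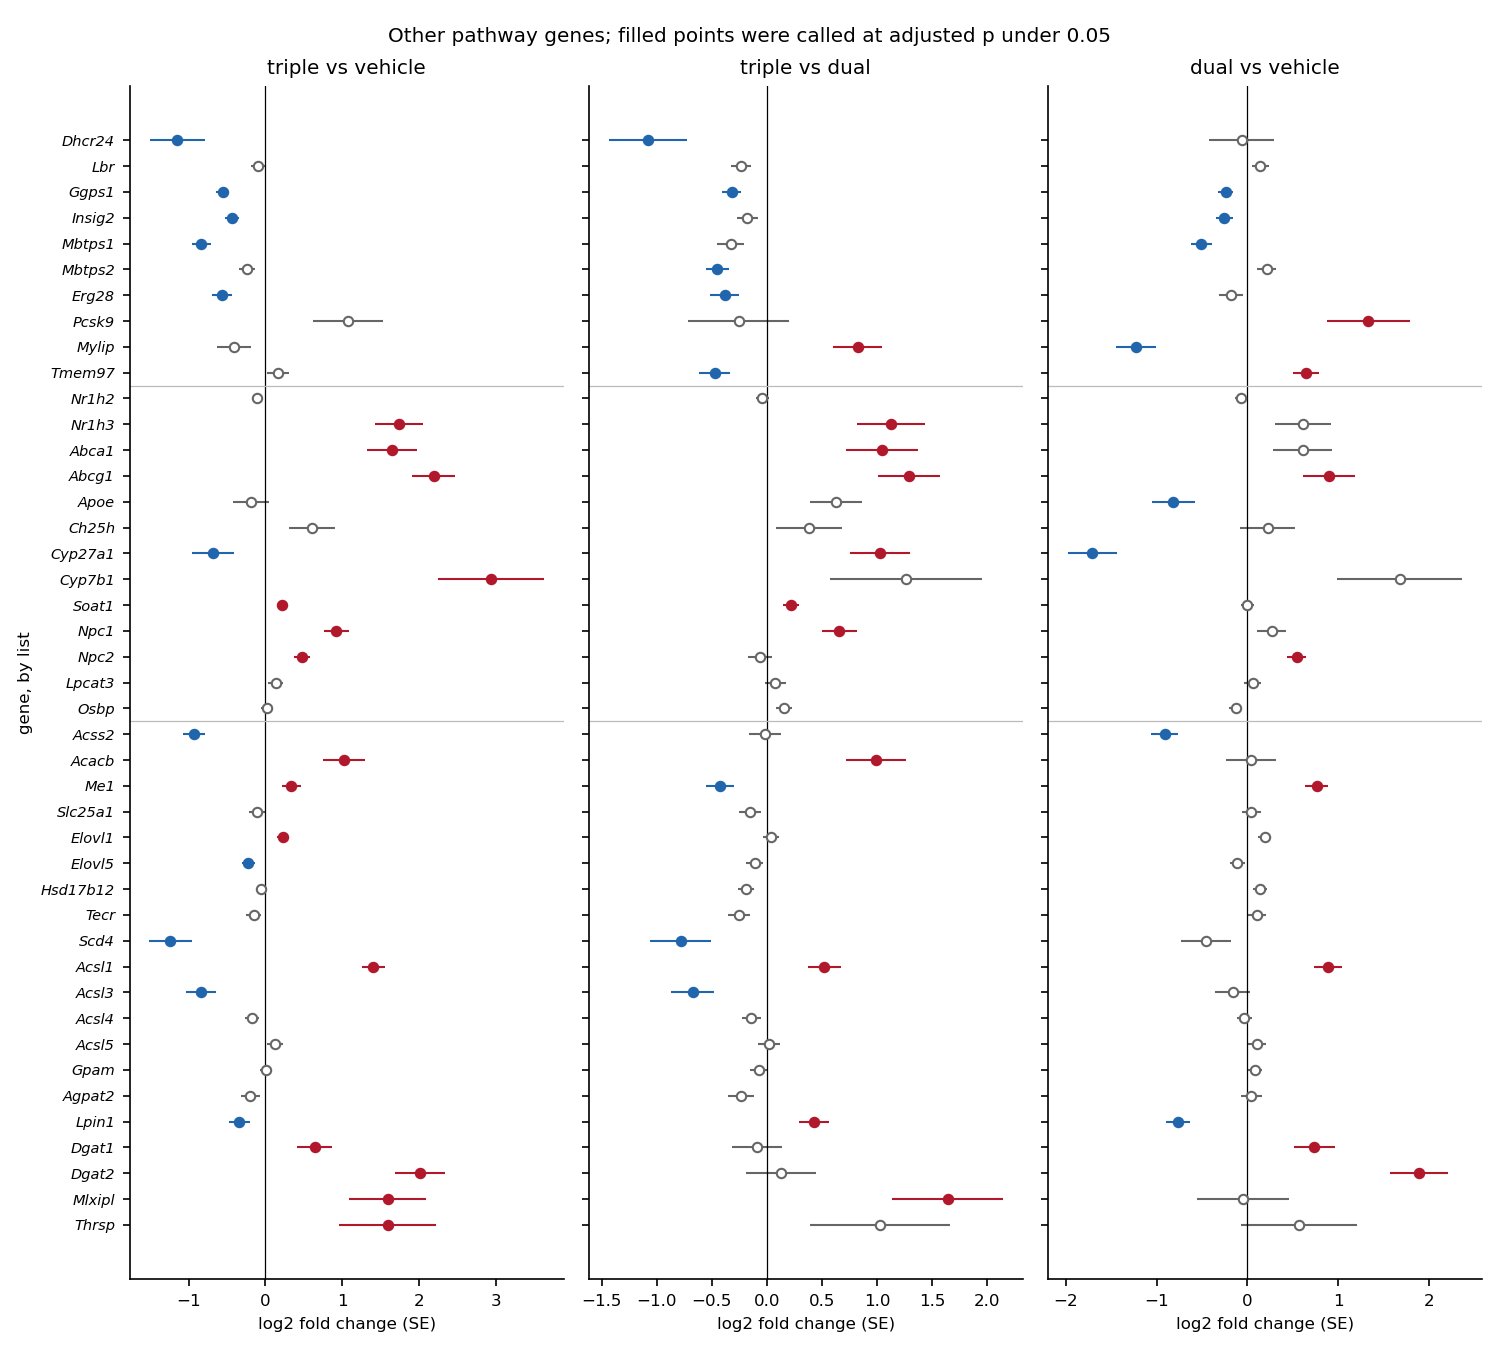
Log2 fold change (x axis) of further pathway genes (y axis) in triple against vehicle, triple against dual and dual against vehicle tumours, from limma with 8 tumours a group; grey lines part the sterol list (top), the export and oxysterol list (middle) and the fatty acid list (bottom). Bars are standard errors and filled points were called at adjusted p under 0.05; Abcg1 (2.19) and Dgat2 (2.02) lie far right of 0 in triple against vehicle, and Mbtps1 (-0.83) and Acss2 (-0.93) lie left.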

How the data were processed

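Bulk RNA-seq of 24 tumours was analysed. Per the submitters' processing notes, FastQC 0.11.8, STAR 2.7.9a, featureCounts 1.6.0, edgeR, limma and the build GRCm39 were used; their settings are not given in the sources used here. The deposited table holds log2 values, which per the values are log2 CPM, with 0.5 added to each read number and the sum divided by a scaled library size of 0.88 to 1.07 times the total. Whole reads were recovered for 100% of values within 0.01 reads. CPM printed here are 2 to the power of the deposited log2 values.

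Groups were taken from the labels. The deposited values of all 24 tumours were fitted with limma 3.58.1 under R 4.3.3, with 1 mean per group, a variance trend, and Benjamini-Hochberg adjustment over 18723 genes, called at an adjusted p under 0.05. Since mouse numbers alone show that tumours came from separate animals, p-values measure the spread between these tumours. That spread was pooled over all groups into 1 estimate per gene, so each comparison also drew on the group not compared. On simulated data, the percentage of false results was 7.14% for triple against dual, 4.44% for triple against vehicle and 5.51% for dual against vehicle. For changes of 1.5-fold, the test recovered 41.8%, 49.3% and 35.8% of changed genes in these comparisons. For changes of 4-fold it recovered 89.4%, 89.4% and 78.8%. No simulated result is given here for groups of unequal spread. Permutation tests used SciPy 1.17.1 (Python 3.11.15) and were two-sided.

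The members and all lists were chosen with earlier results of these data known. Levels are given for Hmgcs1, Sqle, Insig1, Srebf1, Fasn and Scd1 and, in each comparison, for the 5 called members of largest fold change; of each further list the 3 called genes of smallest p and Ch25h, Abca1 and Acss2 were named. Some other pathway genes are not reported here. Alternatives were robust or no variance trend, tumour weights, 2-group fits, a 25th percentile filter, quantile normalization, median centring, the exact Wilcoxon test, precision weights and median-of-ratios scaling on recovered reads, muscle or adipocyte covariates, and leaving out muscle-rich triple tumours or each tumour in turn. Figures used matplotlib 3.10.9.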

Additional observations from a re-analysis of the deposited data

Results flagged for a closer look

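In 7 of 123 groups of 8 tumours, 1 tumour stood apart by Dixon's gap test, which chance gives in about 1 in 20 groups. Of the 93 groups of member values, 2 were of this kind. Fasn in triple tumour T_352_S48 was 6.87 log2 CPM, below the next triple tumour at 7.90. Dhcr7, the last reductase of cholesterol synthesis, was 4.89 log2 CPM in vehicle tumour C_364_S28, above the next at 4.73. The share of keratinocyte marker reads was 0.0109% in triple tumour T_360_S46, against 0.00353% in the next. Among dual tumours, the epithelial marker share of D_367_S35 was 0.00557%, the highest. Vehicle tumour C_375_S31 had the lowest vehicle shares of macrophage markers, 0.141%, and of proliferation markers, 0.126%. In vehicle tumour C_339_S25 mitochondrially encoded genes took 4.81% of reads, against 3.09% in the next.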

How the results depend on the processing

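No paired analysis was possible because no mouse number recurs across groups. Leaving out each tumour in turn gave 7845 to 9220 genes called in triple against vehicle, 2424 to 6673 in triple against dual (2424 without T_353_S45, 2471 without T_352_S48, 6673 without T_331_S44) and 4963 to 6795 in dual against vehicle tumours. Called members numbered 23 to 26, 2 to 25 and 1 to 5 in the same order of comparisons, those of the sterol branch 20 to 22, 2 to 20 and 1 to 4, and those of the fatty acid branch 3 to 4, 0 to 5 and 0 to 2. Genes called in triple against vehicle were 3979 with the muscle covariate and 5701 without the muscle-rich triple tumours, against 8560 with all tumours and no covariate. In triple against dual they were 1374 with 2 groups in the fit, 789 by the exact Wilcoxon test, 8 with the muscle covariate, 2537 with the adipocyte covariate and 2 without the muscle-rich tumours. In dual against vehicle they were 9211 with tumour weights. Members called in triple against vehicle were 12 by Wilcoxon, 2 with the muscle covariate, 12 with the adipocyte covariate and 7 without the muscle-rich tumours. Of these, 11, 2, 11 and 4 were sterol genes, and 1, 0 and 1 were fatty acid genes under the first 3. In triple against dual the members were 1 with 2 groups, 1 by Wilcoxon, 0 with the muscle covariate, 6 with the adipocyte covariate and 0 without the muscle-rich tumours, all of the sterol branch, and 17 under median centring. Fatty acid genes there were 1 under the 25th percentile filter and 4 under median centring. Members in dual against vehicle were 10 with tumour weights, 13 with 2 groups, 0 under median centring, 9 by Wilcoxon and 11 without the muscle-rich tumours. Sterol genes among them were 6, 9, 0, 5 and 7, with 1 each under quantile normalization, the muscle covariate and the adipocyte covariate. Fatty acid genes were 4, 4, 0, 4 and 4, with 0 without a variance trend, 2 with the muscle and 3 with the adipocyte covariate. Some members called with all tumours changed sign without the muscle-rich tumours. Their log2 fold change turned to 0.012 for Hsd17b7 and 0.011 for Srebf2 in triple against vehicle tumours. In triple against dual tumours it turned to 0.0043 for Fdft1 and 0.024 for Sqle. Counting uncalled members too, 12 members were then below 0 in triple against dual tumours, against 30 with all tumours. In triple against vehicle tumours 22 were below 0, against 27 with all tumours. Fewer tumours entered the fits that left tumours out; for the other alternatives the cause was not tested. Of 1147 values of single members in each comparison, 1057 stayed called or stayed uncalled in triple against vehicle tumours. In triple against dual 979 did so, and in dual against vehicle tumours 1071. Sign changes of uncalled values were not counted as a change here. They numbered 18, 16 and 20 in the same order of comparisons. Quantile normalization moved the median of all genes in triple against vehicle tumours to -0.11. With 23 reads at the lowest, depth limits Idi1 most.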
